A study of Homo sapiens with 4 samples.

Results

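In naive human embryonic stem cells, 1205 of the 8977 distinct regions listed for OGA in control cells (13.4%) lay in an intron other than the first intron of a gene. They were chosen by the authors' annotation alone, which names for each region the transcript and the number of the intron that holds it, and every region annotated to intron 2 or a later one was taken. They made up 59.4% of the 2027 intron regions of the control list. The regions came from CUT&Tag with an antibody against OGA in H9, an established human embryonic stem cell line. The control cells were labelled wild type and untreated. The other cells were labelled OGA knockdown, by a short hairpin per the sample titles, and were also untreated. Both groups were grown on a layer of mouse embryonic fibroblasts in PXGL medium, which holds the MEK inhibitor PD0325901, the tankyrase inhibitor XAV939, a protein kinase C inhibitor and human LIF. Each group had 2 libraries, and the labels do not say whether these were separate cultures.

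The authors deposited 1 list of regions per group, and each of the 1205 regions named peaks of both control replicates. The knockdown list held 1334 regions. Neither list gives a read count, signal or score, so the depth of the libraries is unknown, no region has a value per library, and no test across samples could be made. The measurements are therefore the position and width of each region and whether a region of the other list shares at least 1 bp with it. Intervals are 95% intervals and cover counting error over regions only. A region absent from a list was not called there, and this does not show that OGA was absent. The lists hold no expression values, so the loss of OGA itself was not checked here.

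OGA, or O-GlcNAcase, strips a single sugar, O-linked N-acetylglucosamine, from serines and threonines of nuclear and cytosolic proteins, and OGT is the enzyme that adds it. Neither enzyme is known to read a DNA sequence itself. Many chromatin proteins carry the sugar, and OGT binds the TET proteins. Introns are the transcribed segments removed from the pre-mRNA. The first intron lies next to the promoter, while later introns of long genes often hold enhancers and further start sites. CUT&Tag ties a transposase to the antibody, so that DNA near the bound protein is cut and tagged for sequencing.

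Of 36 naive, core, primed, trophectoderm and feeder fibroblast marker genes, naive and core pluripotency markers were better represented in the control list as a whole than the other panels. Any control region was assigned to 9 of 11 naive markers and to 5 of 5 core pluripotency markers, against 2 of 6 primed, 1 of 6 trophectoderm and 1 of 8 fibroblast markers. Among all these markers, KLF17 and TFCP2L1, both naive-state transcription factors, held a later-intron region. The counts depend on these short panels, and the trophectoderm panel does not hold TEAD4, ELF5 or TP63. In the longer lists used below, 16.1% of 31 trophectoderm and Hippo genes held a later-intron region, against 6.25% of 32 naive genes.

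The genome sequence of the build used in the lists was not used here, so the introns themselves are not printed. The promoters of 3 host genes that recur in the results are shown instead, because they differ in whether an OGA region was listed at the start. MTA3, a subunit of the NuRD chromatin remodelling complex, held the most later-intron regions of any gene. GRB2, the adaptor that couples receptor tyrosine kinases to RAS, held 6 of them, and neither gene had a control region assigned to its promoter. METTL16, an RNA methyltransferase, held the widest later-intron region of a protein-coding gene and also had a control region over its own start. The sequences are RefSeq promoters of GRCh38.p14, from 250 bases before to 50 bases after the start, read 5′ to 3′ on the strand of the gene. They lie at chr2:42493860-42494159 on the plus strand for MTA3, chr17:75405629-75405928 on the minus strand for GRB2 and chr17:2511839-2512138 on the minus strand for METTL16. Capitals mark CG dinucleotides.
MTA3: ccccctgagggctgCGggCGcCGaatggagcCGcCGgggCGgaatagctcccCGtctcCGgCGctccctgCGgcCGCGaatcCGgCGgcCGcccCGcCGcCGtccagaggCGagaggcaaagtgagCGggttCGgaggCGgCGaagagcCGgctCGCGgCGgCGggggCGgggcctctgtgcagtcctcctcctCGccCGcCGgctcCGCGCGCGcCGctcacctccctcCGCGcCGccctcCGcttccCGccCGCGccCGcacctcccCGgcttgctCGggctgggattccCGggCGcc
GRB2: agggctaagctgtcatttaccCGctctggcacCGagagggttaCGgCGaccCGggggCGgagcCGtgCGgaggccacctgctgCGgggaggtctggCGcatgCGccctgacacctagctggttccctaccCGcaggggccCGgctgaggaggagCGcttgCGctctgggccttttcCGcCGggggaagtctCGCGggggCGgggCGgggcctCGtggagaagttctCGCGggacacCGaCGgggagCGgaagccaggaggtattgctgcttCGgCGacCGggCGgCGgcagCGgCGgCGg
METTL16: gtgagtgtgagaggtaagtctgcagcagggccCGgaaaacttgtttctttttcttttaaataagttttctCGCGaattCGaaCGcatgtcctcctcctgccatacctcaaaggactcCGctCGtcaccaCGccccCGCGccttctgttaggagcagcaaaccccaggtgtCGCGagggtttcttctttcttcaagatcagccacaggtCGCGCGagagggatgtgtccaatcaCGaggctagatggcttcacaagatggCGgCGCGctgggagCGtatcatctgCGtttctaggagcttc

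The MTA3 window holds 49 CG dinucleotides, a number that 1.62% of the 27305 promoters in the table reach. The GRB2 window holds 35, which 14.0% of promoters reach, and the METTL16 window 21, which 39.5% reach. A CG reads the same on both strands, so 1 count covers both. Over all promoters the median was 14 CG. Among host genes with a promoter in the table it was 23 for the 122 with a control region over a start and 26.5 for the 512 with no control promoter region. Both medians of the hosts were above that of all promoters. The promoters were not matched to the hosts by gene type, whose part in this difference was not tested.

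Later-intron regions were far from starts, and the nearest other control region of any class lay farther from them than from the rest of the control list. The median distance to the nearest annotated start was 19892 bp (interquartile range 9792 to 37997), against 11447.5 bp for first-intron regions and 16220 bp for intergenic regions. The smallest distance was 3006 bp, because the annotation calls regions within 3 kb of a start promoter regions first. In all, 886 regions (73.5%) lay more than 10 kb from a start. The median gap to the nearest other control region was 34.2 kb for later-intron regions, 17.7 kb for first-intron regions and 18.6 kb for all other control regions. Within 10 kb of another control region lay 29.0% of later-intron regions and 38.0% of the others, a difference of -8.98 percentage points (-11.7 to -6.15).

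Their widths resembled those of the rest. The median width was 1524 bp (interquartile range 1233 to 1979, lowest 444, highest 7417), against 1598 bp in first introns and 1584 bp over all other control regions. The regions were spread along their genes. The median intron number was 3, in transcripts with a median of 11 introns. There were 434 regions (36.0%) in intron 2 and 190 (15.8%) in the last intron of the named transcript, and the highest number was intron 95 of 116. For the 443 regions whose host transcript has coordinates in the lists, the median position was 48.3% of the way along the transcript (interquartile range 27.1 to 69.2%). The 339 host transcripts with such coordinates were long, with a median of 82.5 kb. This was close to the 86.1 kb of the 302 such transcripts of first-intron hosts. Hosts without listed coordinates are not covered by these lengths.

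By chromosome, the share of control regions lying in later introns was lowest on chromosome 19 among chromosomes with at least 100 control regions. It was 5.04% there (30 of 595, interval 3.55 to 7.11), 18.5% on chromosome 22 (50 of 270, interval 14.3 to 23.6) and 13.4% over all. Chromosome 13 had 14 such regions among 65 (21.5%, interval 13.3 to 33.0).

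The 1205 regions lay in 913 host genes. A host gene is the gene whose transcript holds the intron, and it often differed from the gene with the nearest start. The nearest start was one of the host in 634 regions and of another gene in 571 (47.4%). In the latter the nearest gene was a long noncoding RNA in 183 cases, protein-coding in 161, a pseudogene in 87, a microRNA in 48 and a small nucleolar RNA in 9. Of the 913 hosts, 889 matched the RefSeq gene table, and these were 742 protein-coding genes, 143 long noncoding RNA genes and 4 transcribed pseudogenes. Most hosts (715) held 1 region, 147 held 2, 29 held 3 and 22 held 4 or more.

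Most hosts had no OGA region at their promoter. A control promoter region was assigned to 238 of the 913 hosts (26.1%, interval 23.3 to 29.0), and in 145 of them it lay over a start. Among 811 genes that held later-intron but no first-intron regions the share was 24.9%, and among 500 with first-intron regions alone it was 31.2%. The difference was -6.29 points (-11.4 to -1.31). A further 102 genes held regions of both kinds. These shares count genes, and gene length was not matched between the groups. The control list held 4212 promoter regions in all. The share of all genes with a control promoter region was not computed, so the 26.1% cannot be called low or high.

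Over all 8977 control regions, 10.0% (901) shared at least 1 bp with a knockdown region, and counts of overlapped regions in single hosts and lists are small and are to be read beside that share. MTA3 on chromosome 2 held 9 later-intron regions, 8 of them in intron 2 of 17 and 1 in intron 7. The intron 2 regions stretched from position 42512969 to 42559580 with widths from 1385 to 3580 bp. The widest, at chr2:42545188-42548767, was overlapped by 2 knockdown regions of 481 and 656 bp. A second, at chr2:42555676-42557374, was overlapped by 1 knockdown region of 438 bp. The other 7 had no knockdown overlap. The control list had no promoter region for MTA3, whereas the knockdown list had one of 690 bp, 716 bp downstream of a start.

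CASC15, a long noncoding RNA gene on chromosome 6, held 8 later-intron regions spread over introns 2 to 5, from 996 to 2900 bp wide. A region in intron 2 at chr6:21693503-21695075 and one in intron 5 at chr6:21921570-21922565 were overlapped after knockdown, by regions of 1327 and 785 bp. The knockdown list had 2 more regions in these introns with no control region under them. One of them, at chr6:21739388-21741765, was 2378 bp wide and was the widest of all later-intron knockdown regions.

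TEAD4, the TEAD family transcription factor that acts with YAP in the Hippo pathway and is needed for trophectoderm in the mouse, held 7 regions on chromosome 12. Of these, 6 lay in intron 2 and 1 in intron 3, within 3291 to 39950 bp of the start. The widest of them measured 4451 bp (chr12:2973916-2978366) and 4315 bp (chr12:2980968-2985282). A control promoter region of 1083 bp lay 1142 bp downstream of the start. The knockdown list had no region assigned to TEAD4, in an intron or elsewhere.

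GRB2 on chromosome 17 held 6 regions, all in intron 2 of 5, from 839 to 2519 bp wide. The narrowest, at chr17:75366727-75367565, was the one overlapped after knockdown, by a region of 1143 bp. For 3 of the 6, the nearest start was that of the pseudogene RPL36AP7 and not that of GRB2.

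SERINC5, a membrane protein known for limiting the infectivity of retroviruses, had the largest overlapped share among hosts of 4 or more regions. Its 4 regions lay in intron 2 of 12 on chromosome 5. The 3 at chr5:80183781-80185628, chr5:80187670-80189746 and chr5:80191448-80195032 were each overlapped by 1 knockdown region, of 754, 1108 and 1246 bp. The fourth, 1619 bp wide, was not. Its first intron also held a control region with a knockdown overlap. SERINC5 and the hosts with fewer than 6 regions named in the next paragraph were picked after their values were seen.

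Among the other hosts of 4 or 5 regions, GCM1, ERC1 and LOC102724618 each had 2 of 4 overlapped. RAP1GAP2, ANKRD11 and CAMTA1 each had 1 of 4. The rest had none overlapped. With 4 or 5 regions per gene, a count of 0 cannot be told from the 10.0% over all control regions and sets none of them apart. JARID2, an accessory subunit of the polycomb complex PRC2, held 5 regions in introns 2 to 6, from 832 to 2039 bp wide, and the knockdown list had no region in its later introns. ZNRF3, a ubiquitin ligase that removes WNT receptors, and KAZN, a gene of cell junctions, also held 5 each with none overlapped. CDH1, which encodes E-cadherin, held 4, all in intron 2, from 1508 to 3040 bp wide and none overlapped, and it also had a control region over its start.

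**Figure D1:**
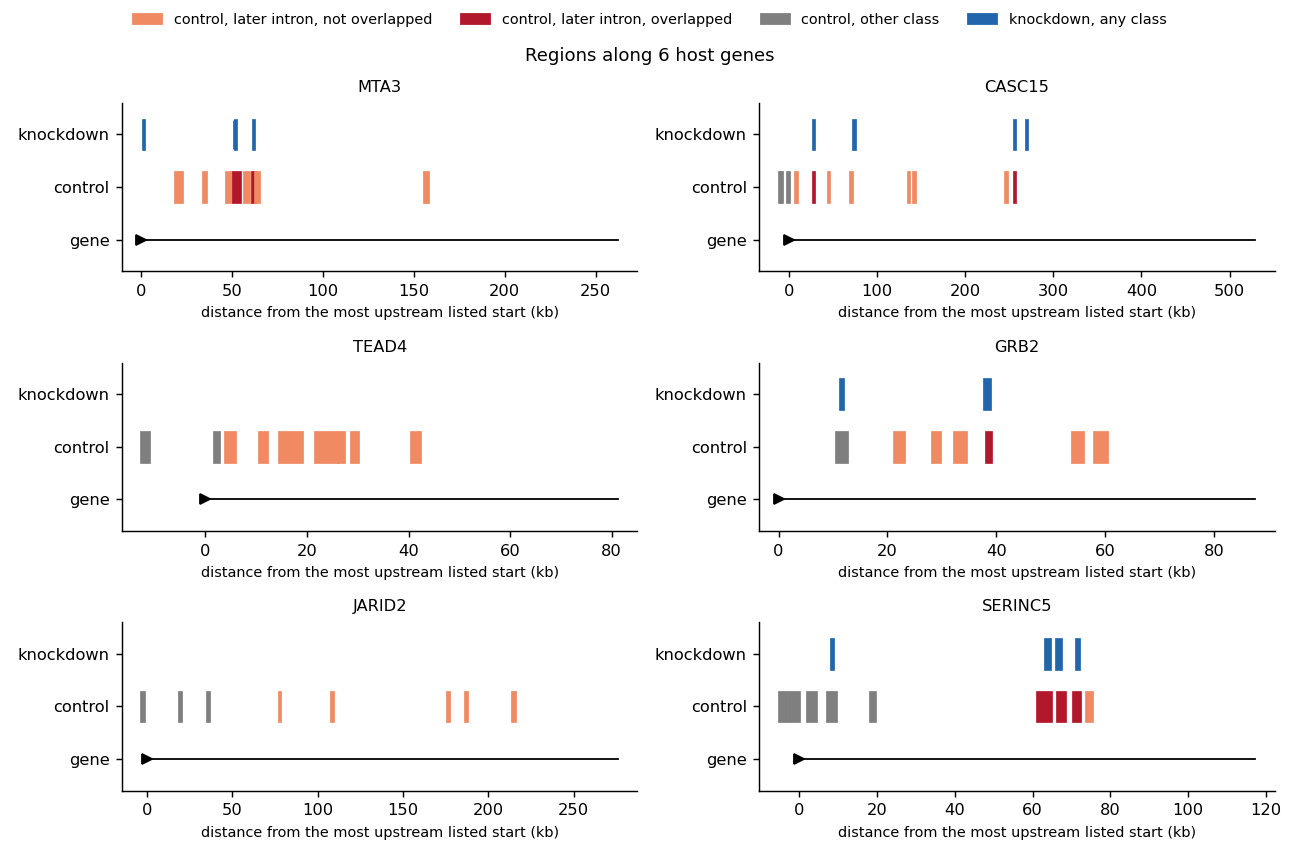
Listed regions along 6 host genes, with the distance from the most upstream listed start in kb on the horizontal axis and 3 rows for the gene, the control list and the knockdown list. Orange and dark red bars are later-intron control regions without and with a knockdown overlap, grey bars are control regions of other classes and blue bars are knockdown regions, and narrow bars are drawn at a minimum width. SERINC5 had 3 of 4 later-intron regions overlapped and TEAD4 0 of 7, where 10.0% of all control regions were overlapped.

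A host is only the transcript that the annotation chose, and for some regions it is a poor guide to the gene nearby. POLR1C, a subunit of RNA polymerases I and III, was given 7 regions, all in intron 9 of 10 of one transcript on chromosome 6. They ran from position 43694767 to 44412842, and their nearest starts were those of MRPS18A, LOC100132242, VEGFA, SCIRT, SPATS1 and MIR4642. The region with VEGFA as its nearest start, the gene of a vascular growth factor, was 3097 bp wide and lay 9925 bp upstream of it. LRRC37A2, one of a family of near-identical copies whose reads may be shared, was given 5 regions in the same way, whose nearest starts were those of the ligand genes WNT3 and WNT9B and of GOSR2.

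The widest later-intron region was 7417 bp long, at chr12:32020721-32028137, in the last of 2 introns of LOC102724618. A knockdown region of 807 bp covered 10.9% of it. A further region of 4630 bp, annotated to intron 2 of another transcript of that gene, was overlapped by 452 bp of knockdown region, and 2 narrower ones of the gene were not overlapped. The METTL16 region, at chr17:2483956-2489271 in intron 2 of 9, was 5316 bp wide and was overlapped by 2 knockdown regions of 973 and 812 bp. It and the MTA3 region were the 2 regions with more than 1 knockdown overlap. G3BP2, a stress granule protein, had a region of 5046 bp in intron 2, and TGIF1, a repressor of TGF-beta responses, one of 4919 bp, each with 1 knockdown region inside it. The others among the 10 widest overlapped regions lay in LOC105376197 (5173 bp), KLF17 (3897 bp), RAP1GAP2 (3892 bp), DMXL1 (3691 bp) and SERINC5 (3585 bp).

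Regions as wide as these were also found among those with no overlap. The widest was in intron 2 of SPIRE1, an actin nucleation factor, with 5313 bp. TMEM131L followed with 4796 bp, then the TEAD4 region of 4451 bp, STARD10 with 4364 bp and the other TEAD4 region of 4315 bp. DUSP16, a phosphatase of MAP kinases, had one of 4017 bp, CCDC12 one of 3999 bp and NDRG3 one of 3899 bp. IGF2BP1, an RNA-binding protein of embryonic cells, had one of 3821 bp and LOC105374945 one of 3707 bp. Among the regions farthest from any start, one in LOC105378178, at 332317 bp, and one in intron 15 of CNTNAP2, a neurexin family gene, at 327439 bp, had no overlap either.

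Chromatin regulators, TEAD factors and GFPT2, a gene of the hexosamine pathway, were among the hosts. Over the RefSeq table, 3.70% of 20056 protein-coding genes (742) held a later-intron control region, and the shares of lists given here are to be read beside that value. The lists were not matched for gene length, whose part in these shares was not tested. None of the shares says anything about the knockdown.

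Of 55 chromatin remodellers and histone modifiers, 9 held 11 later-intron regions with a median width of 1411 bp. None of the 11 was overlapped after knockdown. Counts of 0 or 1 overlapped, here and in the other lists below, are too small to be told from the 10.0% over all control regions. The hosts were ARID1B, a subunit of the BAF remodelling complex, CHD2, an ATP-dependent remodeller, the acetyltransferases CREBBP and KAT6B, the methyltransferases EHMT1 and SETD1B, EP400, the demethylase KDM4C and the corepressor NCOR1. The widest were a region of 2216 bp in intron 5 of KDM4C and one of 2081 bp in intron 2 of CREBBP. Next were one of 1972 bp in intron 2 of CHD2 and one of 1891 bp in intron 3 of ARID1B. The remodeller genes MTA3 and SMARCB1 are not among these hosts, so the count depends on the genes listed. MTA3 had 2 of 9 regions overlapped, and a SMARCB1 region of 1175 bp was overlapped.

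Of 31 polycomb and DNA methylation genes, 5 held 11 regions, of which 1 was overlapped. They were JARID2, MTF2, another PRC2 accessory subunit, the DNA methyltransferase DNMT3A, and TET2 and TET3, which oxidise methylated cytosine. The overlapped region, of 1012 bp in MTF2, was covered over 86.3% of its length by an 898 bp knockdown region. The 2 DNMT3A regions, of 1565 and 1174 bp, both lay in intron 6 of 22, 3467 and 10324 bp from a start.

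Of 24 genes on a list of O-GlcNAc cycling, the hexosamine pathway and genes linked to them, 4 held 5 regions with none overlapped. TET2 and TET3 stand on this list too, as partners of OGT. TET3 had a region of 1990 bp in intron 3. TET2 had regions of 1931 and 1229 bp in the last intron of the transcript that the annotation named, intron 2 of 2. NANS, which makes the phosphate form of sialic acid, had a region of 1735 bp in intron 2, and GFPT2, an isoform of the enzyme that opens the hexosamine pathway, held the fifth. OGA and OGT themselves held none.

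Of 31 trophectoderm and Hippo genes, 5 held 12 regions with none overlapped, and TEAD4 had 7 of the 12. The other hosts were TEAD1, a second TEAD factor, ELF5 and TP63, transcription factors of trophoblast and epithelium, and WWTR1, the TEAD coactivator TAZ. The TEAD1 region measured 2303 bp. The trophoblast factor GCM1, to which the annotation gave 4 regions with 2 overlapped, is not among these hosts. All 4 lay upstream of the most upstream GCM1 start in the lists, and some were nearest to a start of RNU1-136P. Of 50 genes of the signalling pathways that the medium acts on, 5 held 13 regions with 1 overlapped. GRB2 had 6 of these, and the others lay in FGFR2, a receptor for fibroblast growth factors, PRKCA and PRKCB, which are protein kinase C isoforms, and TCF7L1, a WNT pathway repressor.

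Of 32 naive genes, 2 (6.25%) were hosts, KLF17 and TFCP2L1, with 3 regions. The KLF17 region, at chr1:44088475-44092371 in intron 4 of 6, was 3897 bp wide, and its nearest start was that of the pseudogene KRT8P47. A knockdown region of 790 bp lay wholly inside it and covered 20.3% of it. The TFCP2L1 regions, of 2107 and 1326 bp, lay next to each other in intron 2 of 14 and had no overlap. None of 16 core pluripotency genes held one. However, SOX2, a gene with no intron, was the nearest start for 2 regions of 2298 and 1839 bp in intron 7 of SOX2-OT, the noncoding gene that spans it, at 11053 and 15107 bp downstream. Neither was overlapped. Through nearest starts, a region of 1256 bp in CABIN1 belonged to the naive surface marker SUSD2, one of 1192 bp in PIBF1 to KLF5, one of 2011 bp in TAMM41 to the Hippo factor VGLL4 and one of 1716 bp in LOC105369438 to AMOTL1.

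The other lists were at or near the value for all protein-coding genes or below it. CCND2 and CDK6, cyclin D2 and a kinase it binds, were the hosts among 36 cell cycle genes, DNMT3A the host among 21 primed genes and GATA6, an endoderm factor, the host among 24 germ layer genes. No later-intron region lay in any of 37 splicing factor, 25 imprinted, 19 glycolysis or 19 feeder fibroblast genes.

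**Figure D2:**
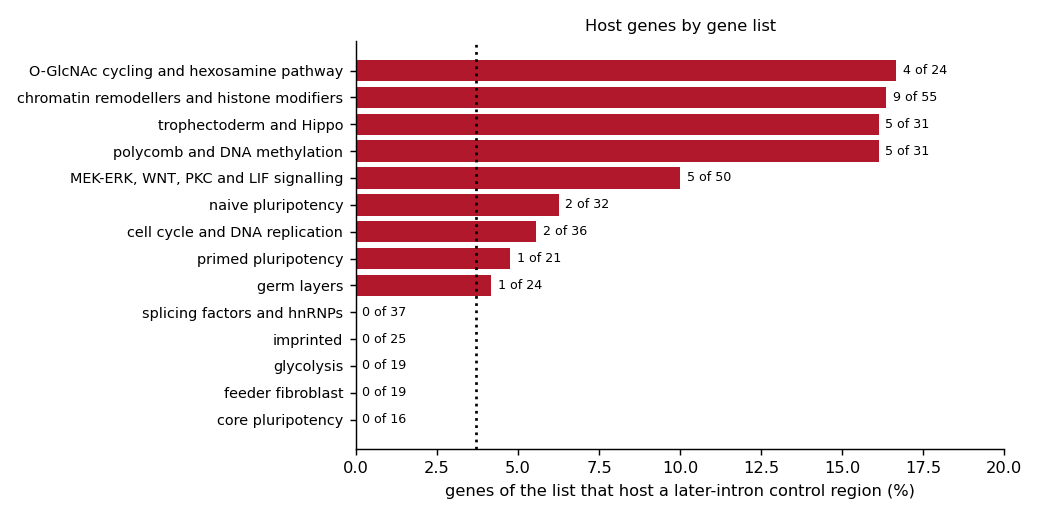
Percent of the genes of each list that held at least 1 later-intron control region, with the number of genes at the end of each bar. The dotted line is the 3.70% of all protein-coding genes. The longest bars are the O-GlcNAc cycling and hexosamine list (4 of 24), chromatin remodellers (9 of 55), Hippo (5 of 31) and polycomb (5 of 31). Hosts in the O-GlcNAc bar are GFPT2, NANS, TET2 and TET3, without OGA or OGT. TET2 and TET3 also count in the polycomb bar.

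Later-intron regions were overlapped by the knockdown list about as often as the rest of the control list. Of the 1205, 116 (9.63%, interval 8.09 to 11.4) shared at least 1 bp with a knockdown region, against 10.0% of all 8977 control regions. For the other control regions it was 10.1%, a difference of -0.47 points (-2.16 to 1.44). First-intron regions were at 11.1%, a difference of -1.44 points (-4.24 to 1.22), promoter regions at 10.1%, exon regions at 12.4% and intergenic regions at 9.78%. Taken over all introns from the second on, no difference between later-intron regions and the promoter, exon, first-intron or intergenic class was larger than its counting error. The result moved with the regions compared. With the control list restricted to its widest regions, equal in number to the knockdown list, the share was 22.0% and the difference from other control regions 6.14 points (-0.28 to 13.9). The 116 regions lay in 106 host genes.

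Width went with overlap inside the class. Overlapped regions had a median width of 1736.5 bp (interquartile range 1291.75 to 2475.75) and the others one of 1503 bp (1225 to 1931). In 4 width classes of nearly equal size, the overlapped share was 7.57, 7.33 and 8% in the narrower classes, up to 1979 bp, and 15.6% in the widest. The widest class was 7.98 points above the rest (3.85 to 12.8). Other control regions in the same width classes gave 7.30, 7.76, 9.54 and 14.7%. A wider region has more bases in which 1 bp can be shared, and its part in the relation was not tested. The 49 regions that merged more than 1 peak of a replicate were overlapped in 12 cases (24.5%) and those of single peaks in 9.0%, a difference of 15.5 points (5.45 to 29.2). Their median widths were 2726 and 1492 bp.

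The overlapped share was higher in intron 2 than in the later ones pooled, but intron 3 was close to intron 2. In intron 2, 54 of 434 regions (12.4%) were overlapped, against 62 of 771 (8.04%) in intron 3 or later, a difference of 4.40 points (0.90 to 8.24). Intron 3 alone was at 10.4% (24 of 231, interval 7.08 to 15.0), introns 4 to 5 at 6.11%, 6 to 10 at 8.33% and those beyond at 6.55%. Regions in intron 3 or later differed from first-intron regions by -3.03 points (-5.92 to -0.13), a comparison added after seeing the data. Among regions wider than the class median the shares were 15.0 and 9.89%, a difference of 5.08 points (-0.24 to 10.9), and among narrower ones 9.66 and 6.30%, a difference of 3.36 points (-1.0 to 8.55). The direction was the same in both width classes, and neither difference alone exceeded its counting error. Intron 2 and first-intron regions differed by 1.37 points (-2.25 to 5.33). The share in the last intron was 11.6% (22 of 190) and 9.26% in those before it, with overlapping intervals.

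The overlapped share also differed with the gene of the nearest start. Regions whose nearest start was that of their host were overlapped in 74 of 634 cases (11.7%), and those nearest to another gene in 42 of 571 (7.36%), a difference of 4.32 points (0.98 to 7.63). The median widths were 1556.5 and 1492 bp. By distance there was no steady trend. From the class nearest to a start to the one beyond 50 kb, the shares were 9.57, 8.44, 10.4, 11.2 and 7.48%. Regions up to 2 kb from another control region were overlapped in 14.8% and those more than 50 kb from one in 8.37%, a difference of 6.42 points (0.78 to 13.5). These splits by width, intron, nearest gene and gap use the same 116 overlapped regions and are not independent of each other, and their intervals were not adjusted for the number of splits.

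**Figure D3:**
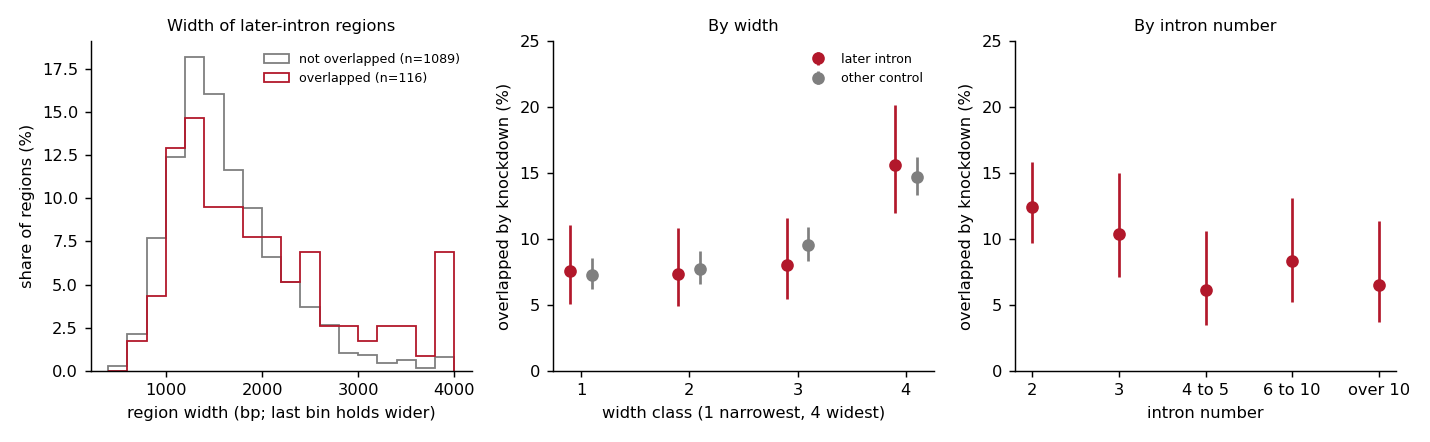
Left, widths in bp of later-intron control regions with (dark red) and without (grey) a knockdown overlap, as a share of each set, where the last bin holds all wider regions. Middle and right, percent overlapped by width class (1 narrowest, 4 widest), with other control regions in grey, and by intron number, with 95% Wilson intervals. The widest class stood at 15.6%, and intron 2 at 12.4%.

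The knockdown regions that met later-intron control regions were mostly narrower than these and mostly lay within them. The narrower widths were not particular to later introns. Median widths were 727 bp over all knockdown regions and 1577 bp over all control regions. Containment was not computed for other classes. There were 118 overlapping pairs, and in 92 of them (78.0%) the knockdown region lay wholly inside the control region. The median width of the knockdown regions in these pairs was 804 bp, and they covered a median of 43.3% of the control region (interquartile range 29.5 to 58.8%). The median distance between centres was 266 bp. In 3 pairs the knockdown region was the wider one.

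Seen from the knockdown list, later introns held a larger share. They held 283 of 1334 knockdown regions (21.2%), against 13.4% of the control list, a difference of 7.79 points (5.56 to 10.2). The larger share was not particular to later introns. First introns held 165 of the 1334 knockdown regions and 822 of the 8977 control regions, also a larger share. Promoters held a smaller one, with 521 and 4212 regions. Only 143 of the 283 (50.5%, interval 44.7 to 56.3) overlapped a control region of any class, against 69.0% of all knockdown regions and 74.0% of those outside later introns. The last difference was -23.5 points (-29.8 to -17.1). Knockdown regions in first introns were at 59.4%, a difference of -8.86 points (-18.1 to 0.70), and those at promoters at 80.2%. Overlapping later-intron knockdown regions had a median width of 791 bp and the others 675 bp.

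Of the 283, 118 overlapped a later-intron control region, 25 a control region of another class and 140 none. Of the 140, 51 (36.4%) lay in a gene that held a later-intron control region elsewhere. CASC15 had the widest of the 140. The next were in PCCA, a mitochondrial carboxylase subunit, with 1746 bp, in AEBP2, a PRC2 accessory subunit, with 1592 bp, in C8orf34 with 1481 bp and in TDP2, a DNA repair enzyme, with 1358 bp. Among list genes, KLF17, MTF2 and GRB2 held a later-intron knockdown region over a later-intron control region. In ARID1B and L1TD1, an RNA-binding protein of pluripotent cells, the knockdown region (563 and 535 bp) overlapped a control region of another class. In KDM4C and TEAD1 (480 and 626 bp) it overlapped none, although both genes held control regions in later introns elsewhere.

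**Figure D4:**
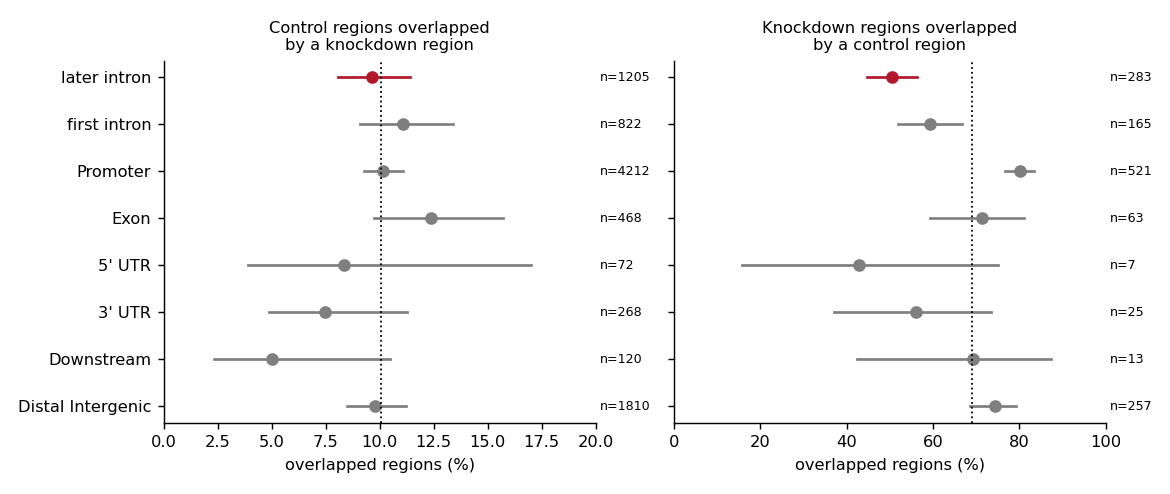
Percent of control regions overlapped by a knockdown region (left) and of knockdown regions overlapped by a control region (right), by annotation class, with 95% Wilson intervals and the number of regions. Dotted lines mark all regions of the list, at 10.0% and 69.0%. Later introns, in dark red, stood at 9.63% on the left and at 50.5% on the right.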

How the data were processed

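OGA CUT&Tag was analysed from the 2 region lists, control and knockdown, that the authors deposited, each merging the peaks of 2 replicates. Per the submitters' processing notes, the build was GRCh38.p13, and edgeR, DESeq2, ChIPseeker 1.12.1, Bowtie2 2.3.4.3 and SEACR 1.3 are listed without roles. The peak threshold, antibody control and depth are not given in the sources used here. Per the file headers the deposited columns are positions, widths and distances to the nearest start in base pairs and an annotation text, with no count or score. The control list had 8978 lines, of which 1 was a repeat.

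The host gene was read from the annotation text. That text has lost the letters "NA" with the slash before them, so 4 host names were restored, and the nearest-start column of the lists shows the same gene names. Overlap meant at least 1 bp. Shares carry Wilson and differences of shares Newcombe 95% intervals, with no p-value. A count test with edgeR was planned and was not run, since the lists hold no counts. RefSeq tables of GRCh38.p14 gave gene types and promoters.

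Genes named were the hosts of the 10 widest regions with and the 10 widest without overlap, of the 5 regions farthest from a start, the 5 hosts with most regions, every naive or core pluripotency host and the 4 widest regions of each other list. Width stood in for a score. Some regions that this rule names are not reported here. Other names were chosen after values were seen. The regions and all 14 gene lists were chosen with earlier results of these data known. Alternatives were other overlap rules, wider regions, equal numbers of regions, a minimum width of 200 bp, primary chromosomes and regions more than 10 kb from a start. Overlap and interval code was tested on simulated data. Calculations used matplotlib 3.10.9, scipy 1.17.1, pandas 2.3.3 and numpy 2.4.6 under Python 3.11.15.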

Additional observations from a re-analysis of the deposited data

How the results depend on the processing

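Of 37 values recomputed under other settings, 26 stayed within the spread of the reported value and 11 moved. With centres within 500 bp as the overlap rule, 6.89% of later-intron control regions were overlapped, and 6.22% of knockdown regions met one, against 8.85% under the 1 bp rule. With control regions narrower than the median of their list left out, these values were 12.3% and 5.25%. With the control list cut to its widest regions, equal in number to the knockdown list, they were 22.0% and 2.47%, the difference from other control regions was 6.14 points (-0.28 to 13.9) and that from first introns 4.87 points (-5.22 to 14.4), so the sign of both was the opposite of that over all regions and both intervals held 0. The cause was not tested. Regions more than 10 kb from a start gave differences of 0.09 points for both comparisons. The next 2 settings were chosen after seeing the data. Regions nearest to a start of their own host gave 11.7%, 1.57 points above other control regions (-0.80 to 4.38), and regions in intron 3 or later gave 8.04%, -2.06 points from other control regions (-3.91 to 0.17) and -3.03 from first introns (-5.92 to -0.13).

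No paired analysis was possible because each region stands for both replicates of its group together, and for the same reason leaving out a replicate was not possible. With no counts in the lists, depth per library is unknown, and a region missing from the shorter knockdown list cannot be told from one that fell below the authors' threshold.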
